A study of Mus musculus with 20 samples.

Results

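Nkx3-2, Tlx1, Tcf21 and Wt1 are transcription factor genes of the splanchnic mesoderm, the layer that surrounds the gut tube and gives rise to the mesenchyme of the stomach, intestine and spleen. These 4 genes were taken by symbol, and all 4 were present among the 43280 gene symbols of the count tables. Nkx3-2, also called Bapx1, is an NK homeobox gene that shapes the stomach, pylorus and spleen and acts in cartilage. Tlx1 is a homeobox gene needed for survival of the spleen primordium, Tcf21 is a basic helix-loop-helix gene of lung, kidney, spleen and fibroblast progenitors, and Wt1 is a zinc finger gene of mesothelium, kidney and gonad. Mouse embryos that lack any one of them fail to form a spleen, which is what they are best known to share.

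The study sorted GFP-positive mesenchymal cells from stomach and intestine at E13.5 (embryonic day) and compared organs and genotypes by RNA-seq and ATAC-seq, an assay of open chromatin. Controls were Bapx1-cre;Rosa26mTmG and Eed KO embryos were Eedfl/fl;Bapx1-cre;Rosa26mTmG, both labelled C57BL/6, with 2 RNA libraries and 2 ATAC libraries for each organ and genotype. Eed encodes a core subunit of PRC2, the complex that places the repressive histone mark H3K27me3, and Rosa26mTmG switches from red to green fluorescence where Cre has acted. A further 4 RNA libraries, 2 labelled WT and 2 labelled EED-KO, came from adult intestinal mesenchyme, which the methods describe as GFP-positive cells of the small intestine of tamoxifen-treated Pdgfrb Cre-ERT2;Rosa26mTmG mice with or without Eed fl/fl. The methods give mixed strain backgrounds for the mice of the study. Every embryonic library, controls included, therefore carried a Cre allele at Bapx1, that is at Nkx3-2, and held only cells in which that allele had been active at some time. No embryonic library free of the allele was analysed here, so the level of Nkx3-2 below is that of a locus with 1 copy altered, and how the altered copy is counted was not tested. The adult driver is active in pericytes and other Pdgfrb-expressing stroma, a different population from the embryonic one.

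The embryonic libraries held between 30236159 and 39606157 counts assigned to genes, and the adult libraries between 11404712 and 15903642. Levels are given as CPM, reads scaled to a common library size by TMM, and as TPM, which also divides by transcript length, where genes are compared with each other. Eed itself lay at 38.1 and 40.1 CPM in control intestine, 40.0 and 41.5 CPM in control stomach, and 7.402 to 11.45 CPM in the 4 embryonic KO libraries. In the adult libraries Eed was at 29.7 and 33.4 CPM in controls and 25.64 and 25.01 CPM in those labelled EED-KO, a log2 difference of -0.32 ± 0.21 (SE) that was not called (edgeR adjusted p = 0.317). The 5 defining markers of endothelium summed to 11.4 to 15.1 CPM in embryonic controls and 21.9 to 44.5 CPM in embryonic KO libraries, against 12960 to 24440 CPM for 6 mesenchyme markers. The other embryonic sums were 1819 to 5518 CPM for smooth muscle, 33.96 to 68.4 CPM for epithelium, 4.897 to 10.02 CPM for enteric neural crest, 3.948 to 12.58 CPM for leukocytes, 0.1645 to 16.51 CPM for erythroid cells, 0.4346 to 1.951 CPM for pancreas and 0.3364 to 2.467 CPM for skeletal muscle. In the adult libraries 4 leukocyte markers summed to 498.5 and 592.1 CPM in controls and 9460 and 11290 CPM in those labelled EED-KO. Differences were tested in edgeR (quasi-likelihood, with the Benjamini-Hochberg correction over every gene past the low-count filter), on 16218 genes in the embryo and 15039 in the adult, and a gene was called when the adjusted p was under 0.05 and the log2 fold change was above 1 in size. The p-values rest on a spread shared by the groups of a fit, with 2 libraries in each group. The study describes its sequencing replicates as biological, so the spread between animals is sampled by only 2 libraries a group.

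On GRCm38 (mm10) the annotation used for counting placed Nkx3-2 on the minus strand at chr5:41761483-41764501, Tcf21 on the minus strand at chr10:22817279-22820128, Tlx1 on the plus strand at chr19:45150680-45156943 and Wt1 on the plus strand at chr2:105126529-105173616. The 250 bases before the annotated start of Nkx3-2, Tlx1 and Tcf21 are shown because an ATAC peak covered each of these starts in all 4 conditions. The next pair are the bases shared by the peaks of all 4 conditions at an element upstream of Nkx3-2 and at one downstream of Tlx1, which were the peaks of highest fold enrichment within 10000 bp of those genes in controls. All were read from the RefSeq GRCm38.p6 genome on the strand of the gene. Capitals mark matches on either strand to TGACAG (bound by TALE homeodomain proteins) or GCGTGGG (WT1 and EGR zinc fingers), and no 2 marked matches overlap.
Nkx3-2 promoter (chr5:41764502-41764751, minus strand): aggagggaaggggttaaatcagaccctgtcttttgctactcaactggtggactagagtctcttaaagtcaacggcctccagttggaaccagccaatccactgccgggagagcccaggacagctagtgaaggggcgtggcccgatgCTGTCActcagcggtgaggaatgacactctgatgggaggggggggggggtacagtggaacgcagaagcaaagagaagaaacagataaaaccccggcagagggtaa
Tlx1 promoter (chr19:45150430-45150679, plus strand): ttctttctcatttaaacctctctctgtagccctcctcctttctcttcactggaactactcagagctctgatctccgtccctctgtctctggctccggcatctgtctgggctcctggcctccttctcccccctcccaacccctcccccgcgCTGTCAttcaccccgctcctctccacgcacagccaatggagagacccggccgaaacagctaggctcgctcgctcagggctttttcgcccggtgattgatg
Tcf21 promoter (chr10:22820129-22820378, minus strand): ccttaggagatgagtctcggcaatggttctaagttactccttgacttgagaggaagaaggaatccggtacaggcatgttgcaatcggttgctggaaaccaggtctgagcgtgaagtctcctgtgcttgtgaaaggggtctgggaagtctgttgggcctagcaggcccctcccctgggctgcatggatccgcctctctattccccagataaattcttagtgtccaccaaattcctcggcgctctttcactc
Nkx3-2 upstream peak (chr5:41768508-41768663, minus strand): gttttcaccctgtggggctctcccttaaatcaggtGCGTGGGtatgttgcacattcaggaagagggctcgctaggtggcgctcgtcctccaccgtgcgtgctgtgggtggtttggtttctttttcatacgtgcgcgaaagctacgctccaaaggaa
Tlx1 downstream peak (chr19:45161103-45161383, plus strand): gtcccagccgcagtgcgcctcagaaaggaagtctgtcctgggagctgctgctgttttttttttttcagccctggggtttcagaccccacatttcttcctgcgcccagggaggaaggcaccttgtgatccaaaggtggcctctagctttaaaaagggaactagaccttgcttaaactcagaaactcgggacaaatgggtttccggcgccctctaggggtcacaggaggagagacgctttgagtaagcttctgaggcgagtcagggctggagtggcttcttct

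The TALE letters lay 105 bases before the start in Nkx3-2 and 100 bases before it in Tlx1, and were found in 16.0% of 27025 RefSeq promoters of the same length. The RefSeq promoter of Nkx3-2 shared 0 of the 250 bases shown, against 215 for Tlx1 and 250 for Tcf21. In Tlx1 the control stomach peak began at 45150599, past the marked letters. GCGTGGG stood in the element upstream of Nkx3-2, against 1.54% of windows of 156 bases centred on control stomach peaks. The E-box CAGCTG, found in 12.8% of promoters, and the NKX core CACTT, found in 40.8%, were also searched on both strands and stood in none of the 5 sequences. The Tcf21 promoter and the element downstream of Tlx1 held none of the 4 motifs. Such matches describe letters and not bound sites. The 3 promoters were 52.8% to 59.2% GC with 7 to 12 CpG dinucleotides, against medians of 52.0% and 6 over all promoters.

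Per transcript length, the 4 genes lay far apart in E13.5 mesenchyme. Tcf21 was the most abundant in each embryonic group, at 796.2 ± 59.7 TPM (SD, n = 2) in control intestine and 872.8 ± 60.5 TPM in control stomach, above 99.3% and 99.4% of detected genes. Nkx3-2 was at 53.9 ± 16.4 TPM in control intestine and Wt1 at 18.2 ± 5.27 TPM, and the libraries of these 2 genes did not overlap there. In control stomach the order of that pair could not be told from the spread, with Nkx3-2 at 36.7 ± 18.3 TPM and Wt1 at 37.6 ± 0.458 TPM. Tlx1 was the lowest, at 0 in control intestine and 1.37 ± 1.22 TPM in control stomach.

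**Figure D1:**
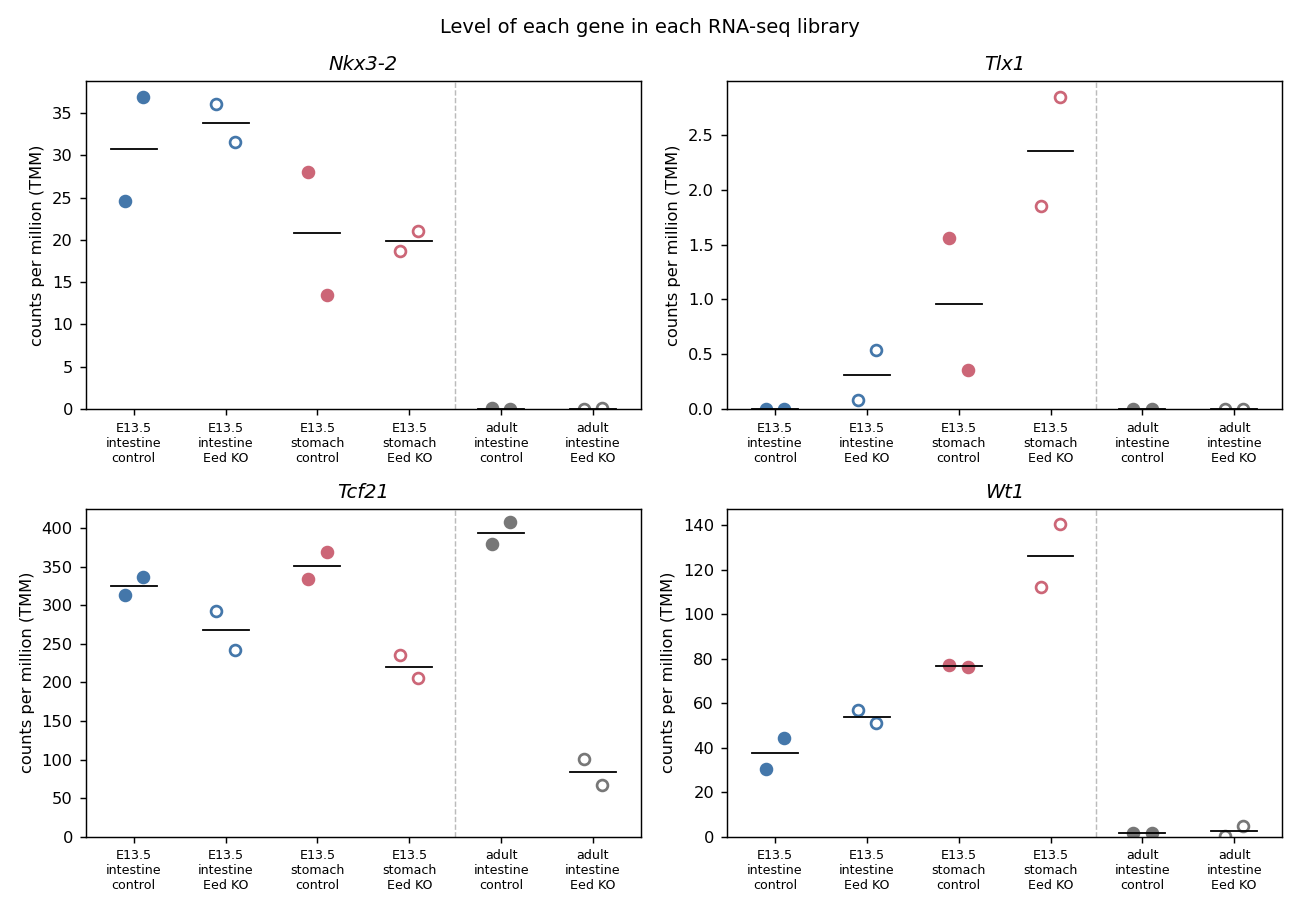
Level of each gene in CPM (vertical axis, linear, starting at 0) in each RNA library, by group (horizontal axis), with filled points for controls, open points for Eed KO and a line at the mean of 2 libraries. The adult libraries, right of the dashed line, were made with another kit and scaled apart from the embryonic ones, and only Tcf21 lies well above 0 there.

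Nkx3-2, the gene that carries the embryonic Cre, showed no difference between organs or genotypes that passed the test. Its level was 24.6 and 36.9 CPM in control intestine, 36.1 and 31.6 CPM in Eed KO intestine, 28.05 and 13.46 CPM in control stomach, and 18.7 and 21.1 CPM in Eed KO stomach. The lowest of the 8 libraries was a control stomach library and the highest a control intestine library, and the 2 organs overlapped in controls but not in the KO. Intestine exceeded stomach by a log2 value of 0.57 (95% confidence interval -0.20 to 1.34) in controls and of 0.77 (-0.00061 to 1.53) in the KO, with edgeR adjusted p-values of 0.48 and 0.251. The difference between KO and control was 0.14 (-0.62 to 0.90) in intestine and -0.06 (-0.83 to 0.71) in stomach, with edgeR adjusted p-values of 0.942 and 0.937. The intervals between KO and control leave room for changes of up to about 1 on the log2 scale, and those between organs reach 1.34 and 1.53. The sign of KO against control in intestine turned to -0.13 without control intestine replicate 1. In stomach it turned to 0.56 without control stomach replicate 1 and to 0.02 without Eed KO stomach replicate 1.

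Tlx1, the spleen survival gene, was scarce in every library, with reads in all 4 stomach libraries and in neither control intestine library. It had 54 and 14 counts in control stomach (1.57 and 0.357 CPM) and 69 and 104 counts in Eed KO stomach (1.85 and 2.85 CPM). In intestine it had 0 counts in both control libraries, which allows up to 0.0824 and 0.0992 CPM, and 3 and 19 counts in the KO (0.0791 and 0.542 CPM). Stomach exceeded intestine in every pair of libraries of the same genotype, and KO exceeded control in every pair of the same organ, although the 3 counts of 1 KO intestine library are no more than the limit of a count of 0.

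Against a limit of 3 counts over both libraries, Tlx1 was at least 20.1-fold lower in control intestine than in control stomach. This was not called (edgeR adjusted p = 0.0757), while DESeq2 called it with an adjusted p of 0.000265, and the edgeR fits without the low-count filter, with an RUVg factor or with a replicate block for the embryo pool called it as well (edgeR adjusted p = 0.00087, 0.0443 and 0.00607). In the KO, intestine was lower than stomach by -2.93 ± 0.90 (log2, SE), not called by edgeR (adjusted p = 0.126) and called by DESeq2 (adjusted p = 0.0175). The edgeR fits without the low-count filter (-2.92, adjusted p = 0.00524) and with the block for the embryo pool (-3.02, adjusted p = 0.00611) called it too. The fit with an RUVg factor did not (-2.88, edgeR adjusted p = 0.0728), and leaving out 1 library gave values from -4.83 to -2.11. The KO intestine was at least 6.56-fold above control intestine, with an edgeR adjusted p of 0.304, a DESeq2 adjusted p of 0.0164 and an edgeR adjusted p of 0.0415 without the low-count filter. It was not called with an RUVg factor or with a block by replicate number (edgeR adjusted p = 0.352 and 0.277). In stomach the KO was higher by 1.30 ± 0.79 (log2, SE; edgeR adjusted p = 0.387), and this reversed to -0.285 with an RUVg factor from the spike-in transcripts. The antisense transcript Tlx1os, which overlaps Tlx1 on the other strand, had 1 count in the 8 embryonic libraries together.

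Tcf21, the fibroblast progenitor gene, was alike in both control organs and lower in the KO libraries of both. It was at 312.7 and 337.0 CPM in control intestine and at 333.5 and 369.2 CPM in control stomach. In the KO it was at 292.8 and 241.9 CPM in intestine and 235.5 and 205.2 CPM in stomach. The control organs overlapped, whereas every KO library lay below every control library of either organ.

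Between control organs Tcf21 differed by -0.11 (log2, 95% confidence interval -0.41 to 0.18; edgeR adjusted p = 0.79). In stomach the KO was lower by -0.67 ± 0.13 (log2, SE), which passed the adjusted p (edgeR, 0.0206) but not the fold threshold. By the adjusted p alone, 1.95% of all tested genes were lower in KO stomach. Tcf21 no longer passed it without control stomach replicate 1, control stomach replicate 2 or Eed KO stomach replicate 2 (edgeR adjusted p = 0.0798, 0.136 and 0.134), and the difference shrank to -0.31 with an RUVg factor (edgeR adjusted p = 0.251). In intestine the KO was lower by -0.28 ± 0.13 (edgeR adjusted p = 0.391), and with an RUVg factor this difference was -0.01 (edgeR adjusted p = 0.966). Per 1000 CPM of the 6 mesenchyme markers, Tcf21 stood at 18.3 to 21.8 CPM in the 4 control libraries, at 22.6 and 11.5 CPM in KO intestine, and at 14.0 and 8.40 CPM in KO stomach.

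Wt1, the mesothelial zinc finger gene, was higher in stomach than in intestine in both genotypes. It was at 77.3 and 76.2 CPM in control stomach and at 30.3 and 44.6 CPM in control intestine. In the KO it was at 112.2 and 140.4 CPM in stomach and at 56.9 and 51.1 CPM in intestine. The 4 groups did not overlap, in the rising order control intestine, KO intestine, control stomach and KO stomach.

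Wt1 was the only one of the 4 genes called between control organs, lower in intestine by -1.04 ± 0.19 (log2, SE; edgeR adjusted p = 0.0185), where 3.39% of all tested genes were called lower in intestine and 5.07% in either direction. The value was just past the fold threshold: it was -0.77 without control intestine replicate 1, -1.03 without control stomach replicate 1 and -1.04 without control stomach replicate 2, and none of the 3 was called (edgeR adjusted p = 0.097, 0.0908 and 0.101). In the KO the intestine was lower by -1.23 ± 0.19 (edgeR adjusted p = 0.0116), again the only call among the 4 genes and against 2.94% of tested genes called lower and 4.4% in either direction. That call was lost without Eed KO stomach replicate 2, at -1.05 (edgeR adjusted p = 0.0633). The KO exceeded control by 0.72 ± 0.19 in stomach (edgeR adjusted p = 0.0623) and by 0.53 ± 0.19 in intestine (edgeR adjusted p = 0.243), and neither was called.

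Wt1 is a gene of the mesothelium, the outer lining of the gut, and the markers of that lining are given beside it. The 8 mesothelium markers, none at 0 in the embryo, summed to 383.3 and 594.9 CPM in control intestine, 640.7 and 679.9 CPM in control stomach, 374.5 and 380.2 CPM in KO intestine and 344.3 and 452.8 CPM in KO stomach. Of these only Gpm6a was called between control organs, lower in intestine by -1.95 (edgeR adjusted p = 0.00167). Over all tested genes 3.39% were called lower there. Between KO and control 0 of the 8 were called in either organ by edgeR or DESeq2. At an unadjusted p under 0.05, 1 was lower in KO intestine and 4 in KO stomach, of which 2 passed the adjusted p (edgeR) without the fold. Over all tested genes in stomach, 8.75% were lower at that unadjusted p and 1.95% by the adjusted p alone. Per 1000 CPM of the list, Wt1 stood at 74.9 and 79.1 CPM in control intestine, 112 and 121 CPM in control stomach, 136 and 150 CPM in KO intestine and 310 and 326 CPM in KO stomach. Wt1 thus lay higher in the KO than in controls of the same organ in every library. The summed list read lower in every KO library than in every control library of the same organ. In intestine the closest pair was 380.2 against 383.3 CPM. Upk3b was the largest part of the sum, with means of 253.4 CPM in control intestine and 289.9 CPM in control stomach. Msln, with few counts, read higher in the KO, with means of 0.494 and 0.752 CPM in intestine and 0.107 and 0.462 CPM in stomach. The means of the other genes of the list read lower in the KO of both organs. In bulk RNA, fewer cells of a type and less RNA per cell cannot be told apart, and the part of cell composition in these values was not tested.

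**Figure D2:**
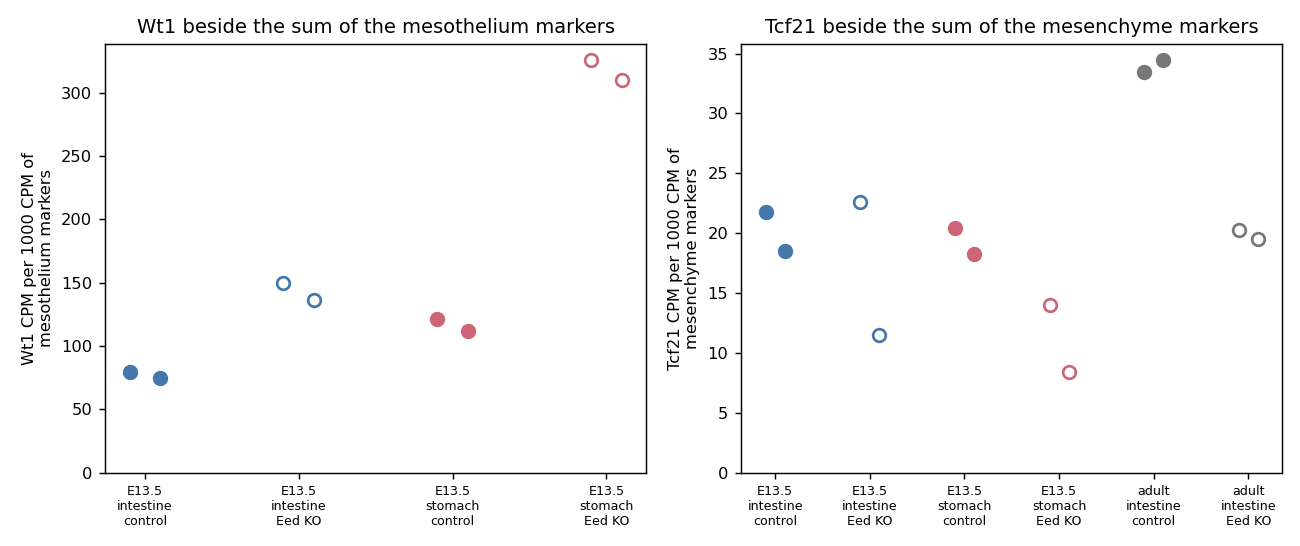
Wt1 per 1000 CPM of the summed mesothelium markers (left) and Tcf21 per 1000 CPM of the summed mesenchyme markers (right), 1 point a library, both vertical axes linear from 0, filled for controls and open for Eed KO. Wt1 runs from 74.9 and 79.1 in control intestine to 310 and 326 in KO stomach, and adult Tcf21 lies at 33.5 and 34.5 in controls and 20.3 and 19.5 in those labelled EED-KO.

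Wt1os, the antisense gene whose start lies 19 bp from that of Wt1 on the other strand, was looked at after the values of Wt1 were seen. It had 50 and 55 counts in control intestine, 96 and 88 in KO intestine, 231 and 232 in control stomach and 326 and 346 in KO stomach. Its 4 groups stood in the same order as those of Wt1 and did not overlap. Intestine was lower by -1.96 ± 0.20 in controls and by -1.85 ± 0.19 in the KO (log2, SE; edgeR adjusted p = 0.00142 and 0.00226). The 2 annotated genes do not overlap, and the embryonic libraries came from a directional kit. The strand setting of the embryonic counting is not given, and how far reads of either gene entered the counts of the other was not tested.

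Whether genotype changed the organ difference was tested as an interaction, called in the study's way at an adjusted p under 0.2. None of the 4 genes was called by edgeR or DESeq2, and none had an unadjusted p under 0.05, where 0.462% of all tested genes were called and 5.88% had such an unadjusted p. The fitted difference between the organ effects of control and KO was -0.39 ± 0.18 for Tcf21, 0.19 ± 0.27 for Wt1 and -0.20 ± 0.46 for Nkx3-2 (log2, SE; edgeR adjusted p = 0.9, 1 and 1). For Tlx1 no fold is given, since 1 of its groups was at 0.

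In the contrast of KO with control, none of the 4 genes was called by edgeR in either organ. By edgeR 2.61% of tested genes were called in intestine and 5.65% in stomach. At an unadjusted p under 0.05, 2 of the 4 genes were higher in intestine, and 1 was higher and 1 lower in stomach, against 10.8% of all tested genes higher in intestine and 13.9% higher and 8.75% lower in stomach. DESeq2 called Tlx1 in intestine and none in stomach. KO and control libraries did not overlap for 3 of the 4 genes in intestine and 3 in stomach, against 38.3% and 55% of all tested genes. The organs did not overlap for 2 of the 4 genes in controls and 4 in the KO, against 51.2% and 44.4% of tested genes. Scaling by the spike-in total in place of TMM moved the median of all genes by 1.85 in intestine and 2.39 in stomach on the log2 scale, KO over control, and on that scale Tcf21 read higher in the KO, by 1.52 and 1.68. Relative to the shifted median, Tcf21 differed by -0.33 and -0.71, Wt1 by 0.52 and 0.79 and Nkx3-2 by 0.13 and 0.02. The part of the endothelial RNA that was higher in the KO libraries was not tested. The 2 organ contrasts and the 2 genotype contrasts share libraries, so they are not independent of each other.

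**Figure D3:**
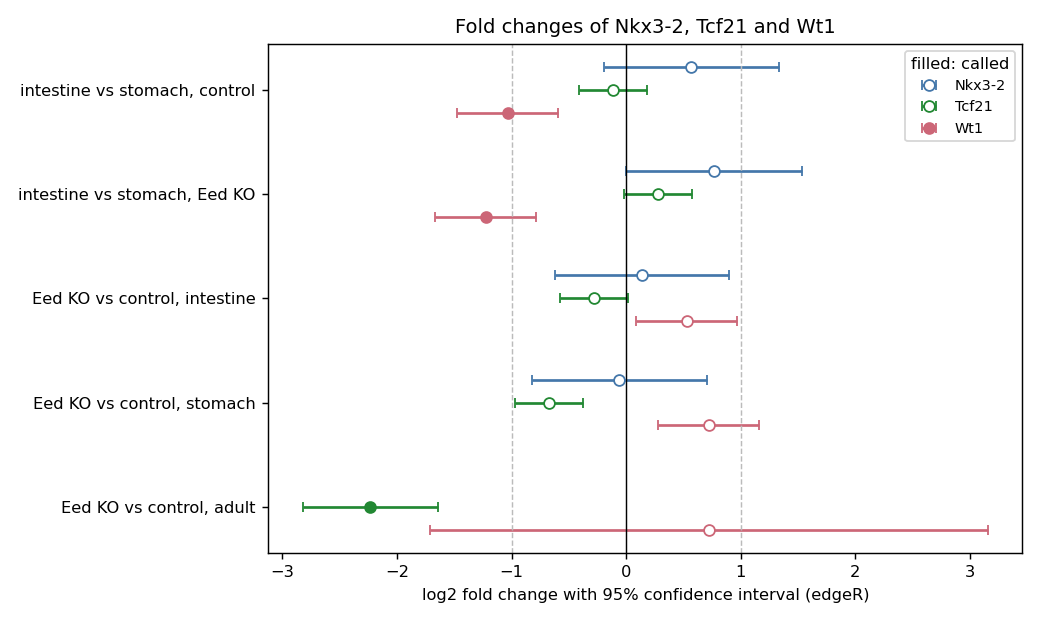
Log2 fold changes (horizontal axis) of Nkx3-2, Tcf21 and Wt1 in 5 comparisons with 95% confidence intervals from the edgeR fit, filled where called, with dashed lines at a log2 fold change of 1 in size. Wt1 is called in both organ comparisons and Tcf21 in the adult comparison, while Tlx1 is not drawn because control intestine had 0 counts.

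The other genes of the splanchnic mesoderm and spleen network moved far more between organs than Nkx3-2 or Tcf21. Of 17 such genes, 2 were higher in control intestine, the gut homeobox gene Nkx2-3 by 7.24 ± 0.67 and the basic helix-loop-helix gene Hand1 by 6.40 ± 0.66 (log2, SE). The 5 lower ones included Barx1, the stomach mesenchyme homeobox gene, by -9.23 ± 0.41, and the spleen and pylorus gene Nkx2-5 by -4.56 ± 0.82 (edgeR adjusted p from 5.94e-05 to 0.0169). Over all tested genes 1.68% were called higher and 3.39% lower. The median of the 17 was -0.05 on the log2 scale, against 0.00 for all tested genes.

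In the KO, 5 of the 17 rose in intestine, led by Gata4 (3.69 ± 0.36) and Barx1 (3.53 ± 0.37), and with Gata5 at 2.45 and Isl1 at 1.67 (log2; edgeR adjusted p from 0.00341 to 0.0348), where 2.38% of tested genes were called higher and 0.228% lower. In stomach 5 rose as well, led by Nkx2-3 (4.32 ± 0.63), Hand1 (2.89 ± 0.62) and Gata4 (2.59 ± 0.30), with Gata6 at 1.54 (edgeR adjusted p from 0.00303 to 0.0316), where 4.84% of tested genes were called higher and 0.808% lower. None of the 17 was called lower in either organ by edgeR or DESeq2, with 0 in intestine and 3 in stomach lower at an unadjusted p under 0.05. In stomach 8.75% of all tested genes were lower at that unadjusted p. The list median was 0.14 in intestine and 0.28 in stomach, against 0.01 and 0.00 for all tested genes. Gata4 thus went from 1.20 ± 0.26 to 15.3 ± 7.30 CPM in intestine (SD, n = 2), whereas Nkx3-2 lay between 24.6 and 36.9 CPM in the 4 intestine libraries. Between KO organs, 3 of the 17 were higher in intestine, among them Hand1 (3.69) and Nkx2-3 (2.68), and 5 were lower, among them Barx1 (-4.93) and Gata4 (-2.56), with edgeR adjusted p from 0.000611 to 0.025 for these 4. Over all tested genes 1.46% were called higher there and 2.94% lower.

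**Figure D4:**
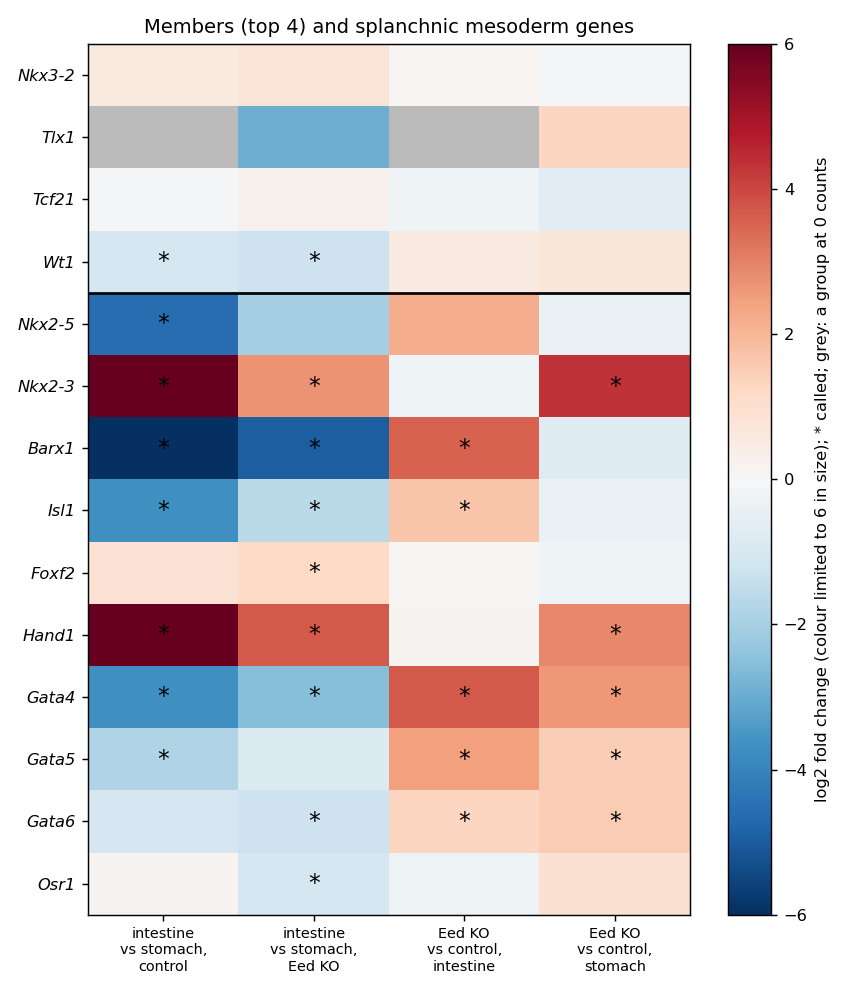
Log2 fold changes of the 4 genes (top) and of the 10 of 17 splanchnic mesoderm and spleen genes called in at least 1 of 4 embryonic comparisons (below the line) in those comparisons, with red higher and blue lower in the first-named group, colour limited to 6 in size, stars for calls and grey where a group had 0 counts. Wt1 carries the only stars among the 4 genes, while Gata4 carries a star in all 4 comparisons.

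Kidney and gonad are the other organs that need Wt1, and their genes were read as a list. Of 12 genes of intermediate mesoderm, kidney and gonad, 4 were lower in control intestine, Emx2 (at least 39.9-fold, 0 against 135 counts), Lhx9 (2 against 946 counts, a ratio of 0.00239 with an exact interval of 0.000289 to 0.00864), the pyloric gene Six2 (-4.21) and the hormone receptor gene Amhr2 (-3.64). The edgeR adjusted p of these 4 ran from 0.000506 to 0.0071, against 3.39% of all tested genes called lower. Of the 12, 2 were higher, against 1.68% of all tested genes. In the KO 4 rose in intestine, Emx2 (at least 12.5-fold), Lhx9 (172 against 2 counts), Pax2 (96 against 3 counts) and Sall1 (1.87), with edgeR adjusted p from 0.00817 to 0.0183, against 2.38% of all tested genes. In stomach 6 rose, including Pax2 (4.64), Lhx1 (80 against 3 counts, a ratio of 26.7 with an exact interval of 8.8 to 132), Sall1 (3.87) and Emx2 (2.97), with edgeR adjusted p from 0.00118 to 0.0393 for these 4, against 4.84% of all tested genes. None of the 12 was called lower in the KO of either organ by edgeR.

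Genes of the pyloric sphincter, at the border of stomach and duodenum, were read from 6 listed genes, 2 of which also stood in the splanchnic list. In control intestine 4 were lower, Nkx2-5 (-4.56), Six2 (-4.21), Gata3 (-3.98) and Sox9 (-3.40), with edgeR adjusted p from 0.000319 to 0.0265, against 3.39% of all tested genes. The 2 control stomach libraries stood apart for part of this list, with Nkx2-5 at 32.1 CPM in replicate 1 and 6.397 CPM in replicate 2. Gata3 was at 13.01 and 2.88 CPM and Grem1 at 48.91 and 13.69 CPM. Six2 (197 and 148.7 CPM) and Sox9 (12.26 and 10.55 CPM) differed less, and Bmp4 went the other way, at 47.23 and 81.66 CPM. Replicate 1 was also the higher of the pair for Tlx1 and Nkx3-2, and the part of this difference in the values of those genes was not tested. In KO intestine Sox9 rose by 2.07 ± 0.22 (edgeR adjusted p = 0.00535), where 2.38% of all tested genes were called higher. In KO stomach none of the 6 was called by edgeR or DESeq2 and none had an unadjusted p under 0.05. Of 5 close relatives of the 4 genes, 3 passed the filter, and Msc, the nearest paralogue of Tcf21, was lower in control intestine by -2.70 ± 0.29 (edgeR adjusted p = 0.00185). Msc rose by 2.17 ± 0.29 in KO intestine and fell by 1.07 in KO stomach (edgeR adjusted p = 0.0112 and 0.0496), and its interaction was called (-3.24 ± 0.39, edgeR adjusted p = 0.0475). Of 6 cartilage and sclerotome genes, the other field of Nkx3-2, 2 were called higher in the KO of each organ. Over all tested genes 2.38% were called higher in intestine and 4.84% in stomach. Pax9 rose in both organs (3.91 ± 0.72 and 6.25 ± 0.66, edgeR adjusted p = 0.0349 and 0.0024), from 71 against 4 counts in intestine and 325 against 4 in stomach. Pax1 rose in stomach (at least 58.3-fold, 175 against 0 counts; edgeR adjusted p = 0.0445) and Col2a1 in intestine (2.74 ± 0.53, edgeR adjusted p = 0.0397).

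In adult intestinal mesenchyme, Tcf21 stayed among the most abundant genes of the controls while the other 3 were at or near 0. Nkx3-2 had 1 and 0 counts in adult controls and 0 and 1 in the libraries labelled EED-KO, at or under the 0.189 to 0.263 CPM that a count of 0 allows. Tlx1 had 0 counts in all 4 adult libraries. Neither gene passed the low-count filter, so 2 of the 4 genes were tested there.

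Tcf21 was at 379.4 and 408.0 CPM in adult controls and at 100.6 and 66.8 CPM in the libraries labelled EED-KO. The 2 groups did not overlap, as was the case for 65.3% of tested genes. It fell by 2.24 ± 0.25 on the log2 scale (edgeR adjusted p = 0.00126), where 19.6% of tested genes were called and 7.23% were called lower. Of the 15039 genes tested there, 1856 were called higher. In the same libraries the 4 leukocyte markers measured were all called higher (Ptprc 4.04, Csf1r 4.99, Cd68 5.09 and Lyz2 4.13), and 4 of 6 mesenchyme markers were called lower (Pdgfra -1.79, Col1a1 -1.65, Col3a1 -1.60 and Col1a2 -1.31). The summed mesenchyme markers were at 11310 and 11830 CPM in controls and 3434 and 4947 CPM in those labelled EED-KO. Per 1000 CPM of that list Tcf21 stood at 33.5 and 34.5 CPM in controls and 20.3 and 19.5 CPM in the others, so it was lower beside these markers too. Smooth muscle markers summed to 1816 and 2253 CPM in controls and to 3143 and 3700 CPM in those labelled EED-KO, with 3 of 6 called higher. Endothelium markers summed to 72.73 to 81.2 CPM and 126.5 to 188.3 CPM, with 1 of 5 called higher (Pecam1, 1.43), and enteric neural crest markers to 1.119 to 1.899 CPM and 16.52 to 17.53 CPM, with 1 of 3 tested called higher (Elavl4, 206 against 5 counts). The part of these other cell types in the fall of Tcf21 was not tested.

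Wt1 was at 1.61 and 1.61 CPM in adult controls and at 0.30 and 4.94 CPM in the libraries labelled EED-KO, from 22, 23, 3 and 64 counts. One of the latter lay below both controls and the other above both. The difference was 0.72 ± 1.03 (log2, SE; edgeR adjusted p = 0.653), and it reversed to -2.39 without adult Eed KO replicate 2. That library, the higher in Wt1, also held pancreas markers at a sum of 690 CPM, against 12.12 CPM in the other library labelled EED-KO and 20.59 and 10.77 CPM in controls, and their part in the level of Wt1 was not tested. Of the splanchnic mesoderm and spleen list, 11 genes passed the adult filter and 4 were lower, Bmp4 (-1.98), Foxf2 (-1.92), Nkx2-3 (-1.36) and Osr1 (-1.01), with edgeR adjusted p from 0.00274 to 0.0152. None was called higher by edgeR or DESeq2, and none was higher at an unadjusted p under 0.05. The median of the 11 was -0.54 on the log2 scale, against 0.00 for all genes tested in the adult.

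Open chromatin was read from 4 lists of ATAC peaks, each called by the authors on the pooled replicates of an organ and genotype, so that the lists carry no replicate spread and no test. A peak lay over the annotated start of each of the 4 genes in every list, whether or not the gene was transcribed. Over the 15605 autosomal genes tested for expression, 88.2% had a peak within 1000 bp of the start in control intestine, 88.6% in control stomach and 89.3% in each KO list. Presence of a promoter peak is therefore near the background for these genes.

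The fold enrichment of the Wt1 promoter peak was 4.09 in control intestine, 4.65 in KO intestine, 4.68 in control stomach and 4.68 in KO stomach. Tcf21 had promoter peaks of 3.82, 4.14, 4.33 and 3.83 in the same order, and Nkx3-2 of 3.39, 3.47, 3.10 and 2.86. The promoter of Tlx1 had 2.96, 2.99, 3.22 and 3.34, with -log10 q values of 3.65, 5.16, 5.26 and 12.2. All 16 values were below the median of promoter peaks, which was 6.45 to 6.92 across lists, and they lay above only 2.81% to 24.0% of them. The Nkx3-2 peak was broad, 2076 to 3370 bp against a median of 1107 to 1212 bp, and covered most of the gene.

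Between lists, the promoter folds of the 4 genes moved little. The ratio of KO to control in intestine was 1.14 for Wt1, 1.08 for Tcf21, 1.02 for Nkx3-2 and 1.01 for Tlx1, against a median of 0.951 over 13694 genes and a middle 90% from 0.765 to 1.15. In stomach it was 0.999 for Wt1, 0.885 for Tcf21, 0.924 for Nkx3-2 and 1.04 for Tlx1, against a median of 0.989. For control intestine over control stomach it was 0.873 for Wt1, 0.882 for Tcf21, 0.918 for Tlx1 and 1.09 for Nkx3-2, all inside the range of 0.86 to 1.2 that held the middle 90% of 13672 genes. Between the KO organs Nkx3-2, at 1.21, lay above the middle 90% of genes, which ended at 1.13. The Tlx1 promoter, with 0 counts of RNA in control intestine, thus had 0.918 of the enrichment it had in control stomach.

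Peaks away from the starts were looked at after the promoter values were known. Near Nkx3-2 a narrow peak stood about 4 kb upstream in all 4 lists, with a fold of 4.43 in control intestine, 5.07 in KO intestine, 6.06 in control stomach and 4.39 in KO stomach, and it holds the GCGTGGG sequence printed above. Its width was 156 to 173 bp in 3 lists and 1448 bp in KO stomach. Near Tlx1 the strongest peak of both controls lay beyond the 3' end, with a fold of 5.05 in control intestine and 5.59 in control stomach against 3.94 and 3.39 in the KO. It was 317 bp wide in control intestine and 1841 bp in control stomach, against 1440 and 2412 bp in the KO. The part of peak width in these folds was not tested. Within Wt1 a peak about 7 kb past the start overlapped an annotated exon, with a fold of 3.52 in control intestine, 5.19 in KO intestine, 4.64 in control stomach and 5.31 in KO stomach, and -log10 q values of 9.12, 37.0, 21.6 and 56.5. Its lowest and highest values fell in the groups with the lowest and highest Wt1 RNA. Its folds in KO intestine and control stomach stood in the reverse of their RNA order. An intron peak, centred 15257 bp past the start in control intestine, ran the other way. Its fold was highest in control intestine, at 5.66, against 4.31 in KO intestine, 4.2 in control stomach and 4.24 in KO stomach. Its width was 636, 917, 760 and 1350 bp in the same order. Neither pattern had replicates to test it. Wt1 had 8 peaks within 10000 bp of the gene in control intestine, 10 in KO intestine, 11 in control stomach and 12 in KO stomach, from lists of 103808, 119181, 115789 and 116842 peaks. Nkx3-2 had 3 such peaks in each list, Tlx1 had 6 in each, and Tcf21 had 3 in each but KO stomach, where it had 2.

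**Figure D5:**
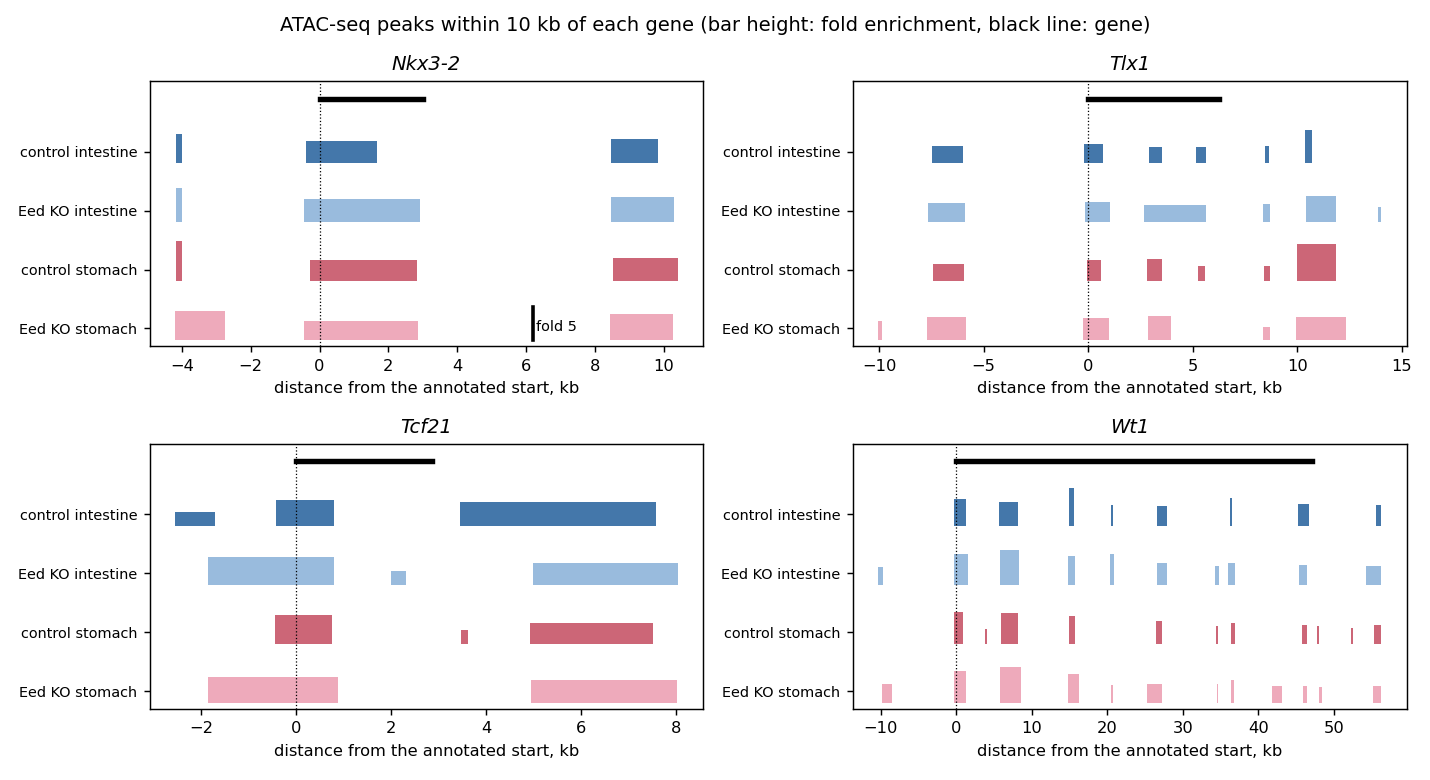
ATAC peaks within 10 kb of each gene in the 4 peak lists (rows), against distance from the annotated start in kb along the gene (horizontal axis), with bar height giving fold enrichment against the scale bar of 5 and the black line the gene. Every gene has a peak over its start in all 4 lists, and Wt1 shows 8, 10, 11 and 12 peaks in control intestine, KO intestine, control stomach and KO stomach.

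The genes whose log2 CPM over the 8 embryonic libraries was most like that of each gene are given as a description, since the libraries fall into 4 groups of 2 and share their scaling. For Wt1 these were Ctsf (Pearson r = 0.987), Slc7a4, Stard10, Scamp5 and Dab1, and 95 of 13385 genes passed 0.95. For Tlx1 they were Spock2 (0.993), Lcp1, F2rl1, Col4a4 and Slc6a17, and for Tcf21 Suds3 (0.985), Thap4, 3110082I17Rik, Uchl3 and Gps1. For Nkx3-2 they were Npepl1 (0.976), Tmem88, Gm17315, Irf5 and Ano8, and only the first of them passed 0.95. Among the 4 genes themselves, Tlx1 and Wt1 were the most alike (0.891), and Nkx3-2 and Tcf21 the closest to 0 (0.00893).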

How the data were processed

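RNA was read by the authors from sorted cells with SIRV spike-in transcripts, aligned with STAR to mm10 with GENCODE vM4 and counted with featureCounts. The count tables were deposited as raw read counts per gene symbol, with exon lengths beside the adult counts. The authors pooled the ATAC replicates, kept autosomal reads and called broad peaks with MACS2 (2.1.2), and each deposited peak gives a fold enrichment, a ratio over local background, and a −log10 q. The annotation's starts were used for promoters, with a window of 1000 bp, and coordinates were not converted. Sequences came from the RefSeq GRCm38.p6 genome. The RefSeq promoter table held 3 of the 4 genes, and no Wt1 sequence is printed.

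The 8 embryonic libraries entered 1 fit of 4 group means and the 4 adult libraries another, in edgeR 4.0.16 (filterByExpr, TMM, glmQLFit and glmQLFTest) under R 4.3.3. Spike-in transcripts stayed out of library sizes. Confidence intervals are 95% from the t distribution of the fit. A limit of 3 counts stands for 0 counts, and such limits and exact intervals cover counting error only. DESeq2 1.42.0, no filter, spike-in scaling, 1 RUVg factor, replicate blocks and leaving out each library were alternatives. The 4 genes and the 15 gene lists were chosen with earlier results of these data known. Named list genes are those called, up to 4 a list and comparison by size of fold, and the 5 genes of highest correlation with each of the 4 genes. Groups and replicate numbers came from the labels. The study's own cutoffs were used. The embryonic counting's strand setting is not given in the sources used here. Some genes of the lists are not reported here by name.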

Additional observations from a re-analysis of the deposited data

How the results depend on the processing

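Leaving out 1 library at a time leaves its group with a single library, which is then assumed to vary like the others. Most differences of the 4 genes kept their direction and their side of the threshold: over 6 comparisons and all alternatives but spike-in scaling 167 values did so, 10 reversed, 9 passed the threshold only under the alternative and 4 lost it, and where a reason is not given the cause was not tested. Spike-in scaling, which adds a shift of all genes by construction, gave for control intestine against control stomach 0.17 for Tcf21 and -0.77 for Wt1, with Tlx1 at -7.24, for KO intestine 1.98 for Nkx3-2, 8.10 for Tlx1, 1.52 for Tcf21 and 2.38 for Wt1, for KO stomach 2.41 for Nkx3-2, 3.87 for Tlx1, 1.68 for Tcf21 and 3.18 for Wt1, for KO intestine against KO stomach -1.57 for Wt1, and for the interaction 0.44 for Nkx3-2 and 0.16 for Tcf21. Tlx1, with few counts, was called between control organs by DESeq2 (-7.40), without the low-count filter (-8.09) and with an RUVg factor (-8.34), and the fit with a replicate block for the embryo pool gave -8.18, also called. Between KO organs DESeq2 gave -2.93, no filter -2.92 and the pool block -3.02, all 3 called, and in KO intestine DESeq2 gave 5.77 and no filter 6.47, both called. Neither comparison was called for Tlx1 with an RUVg factor, nor was KO intestine with a block by replicate number. With an RUVg factor KO stomach gave 0.22 for Nkx3-2 and -0.285 for Tlx1. In the adult the replicate block gave -0.025 for Wt1. Leaving out 1 library gave, between control organs, 0.14 to 1.19 for Nkx3-2, -0.18 to -0.03 for Tcf21 and -1.34 to -0.77 for Wt1. In KO intestine it gave -0.13 to 0.45 for Nkx3-2 and 0.27 to 0.83 for Wt1, in KO stomach -0.49 to 0.56 for Nkx3-2 and -0.78 to -0.58 for Tcf21, between KO organs -1.38 to -1.05 for Wt1, for the interaction -0.63 to 0.43 for Nkx3-2 and -0.11 to 0.45 for Wt1, and in the adult -2.58 to -1.98 for Tcf21 and -2.39 to 1.59 for Wt1.

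Counts of called genes over the whole table moved more than the values of the 4 genes. Between control organs 273 were higher and 549 lower, with 70 and 85 under spike-in scaling, and 149 to 173 and 214 to 330 without 1 library. In KO intestine 386 were higher and 37 lower, with 628 and 57 by DESeq2, 734 and 66 without the filter, 13664 and 24 under spike-in scaling, 194 and 72 with an RUVg factor, and 60 to 338 and 11 to 28 without 1 library. In KO stomach 785 were higher and 131 lower, with 15419 and 19 under spike-in scaling, 287 higher with an RUVg factor, 198 lower without the filter, and 282 to 576 and 50 to 74 without 1 library. Between KO organs 237 were higher and 477 lower, with 20 and 95 under spike-in scaling, and 89 to 225 and 200 to 362 without 1 library. The interaction called 44 higher and 31 lower, with 108 and 99 by DESeq2, 120 and 117 without the filter, 20 and 0 under spike-in scaling, 87 and 82 with an RUVg factor, and 17 to 57 and 7 to 45 without 1 library. In the adult 1856 were higher and 1088 lower, with 1154 higher under spike-in scaling, and 1512 to 1838 and 787 to 1288 without 1 library. Same-numbered organs may share embryos, which the labels do not state. Deviations from the group means of same-numbered libraries correlated at 0.265 between control organs, 0.628 between KO organs, 0.0993 and 0.047 between genotypes and -0.0604 in the adult, so the replicate block stands only as an alternative: it gave 357 higher and 774 lower between KO organs and 179 and 171 for the interaction by embryo pool, and 56 lower in KO intestine by number. Every promoter peak of the 4 genes stood in all lists under a window of 5000 bp, and at a −log10 q of at least 5 that of Tlx1 was lost in control intestine. With 2 libraries a group, differences of the size seen for Nkx3-2 could not be separated from 0, and the pooled peak lists allowed no test.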
